A study of Mus musculus with 2 samples.

Results

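Expression of 10 genes was followed in the mouse hippocampus, the S100 genes S100a8, S100a9, S100a1, S100a4, S100a6, S100a10, S100a11, S100a13 and S100b, and the neutrophil granule gene Ngp. They were taken as every probe whose symbol in the platform annotation is one of these names, which gave 10 probes, 1 for each gene, of 23473 probes and 16446 named genes on the array. All 10 probes lay above background in all 4 channels measured, as did 18664 probes and 13596 named genes in all. The genes were chosen by the log2 ratios on these same arrays, those of S100a8, S100a9 and Ngp with opposite signs in the mutant pools, together with other S100 genes, so their values are given as a description.

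The study hybridised hippocampal RNA from Atrx mutant mice against wild-type RNA on 2 two-colour oligonucleotide arrays. ATRX is a chromatin remodeller that binds repeats and other G-rich DNA, and TMPyP4 is a porphyrin that binds G-quadruplexes, 4-stranded structures of such DNA. The first pool is AtrxdE2, from mice with an Atrx allele named for the deletion of exon 2. The second is AtrxdE2+TMPyP4, from mice of that genotype injected intraperitoneally with 30 mg/kg TMPyP4, 2 times a week between day 30 and day 90 after birth. Each was set against wild type on 1 array, and each RNA was pooled from 5 mice. Sex, strain and age at dissection were not given, nor whether the untreated mice received vehicle, and no wild-type mice given TMPyP4 were analysed here. RNA was amplified as amino allyl RNA, with wild type in Cy5 and the mutant pool in Cy3 on both arrays, so that dye and genotype cannot be told apart. The labels do not say whether both arrays carried the same wild-type pool.

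S100 proteins are small calcium-binding proteins with a pair of EF-hand motifs, and most act as dimers that bind target proteins when calcium rises. S100A8 and S100A9 form calprotectin, an abundant cytosolic complex of neutrophils and monocytes that sequesters zinc and manganese and, once released, signals through the receptors TLR4 and RAGE. NGP is a cathelicidin-related protein stored in neutrophil granules, and in brain parenchyma neutrophils are normally scarce. S100B is an astrocyte protein, and S100A4, S100A6, S100A10 and S100A11 are found in fibroblasts, vessels, glia and many other cells.

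S100a8, S100a9 and Ngp, which were chosen by the shared signs of their ratios on each array, are shown here by their promoters. The sequences run from 250 bases before to 50 bases after the start of each gene and come from RefSeq, build GRCm38.p6. S100a8 is at chr3:90668821-90669120 on the plus strand, S100a9 at chr3:90695672-90695971 on the minus strand and Ngp at chr9:110419558-110419857 on the plus strand. Capitals mark matches to TTNNGNAA, a pattern searched on both strands (its reverse complement reads TTNCNNAA) that resembles the sites of C/EBP factors, transcription factors of granulocytes.
S100a8: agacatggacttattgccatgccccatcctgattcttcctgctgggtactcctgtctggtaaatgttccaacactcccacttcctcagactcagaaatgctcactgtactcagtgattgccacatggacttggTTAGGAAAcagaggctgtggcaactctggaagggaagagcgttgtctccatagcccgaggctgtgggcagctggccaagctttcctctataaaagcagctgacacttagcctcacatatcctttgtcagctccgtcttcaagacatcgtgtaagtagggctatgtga
S100a9: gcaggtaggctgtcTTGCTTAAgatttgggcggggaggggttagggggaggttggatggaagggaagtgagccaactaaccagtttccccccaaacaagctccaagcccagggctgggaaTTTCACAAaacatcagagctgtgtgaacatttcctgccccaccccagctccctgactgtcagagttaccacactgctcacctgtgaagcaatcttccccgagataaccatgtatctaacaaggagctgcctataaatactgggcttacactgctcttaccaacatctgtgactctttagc
Ngp: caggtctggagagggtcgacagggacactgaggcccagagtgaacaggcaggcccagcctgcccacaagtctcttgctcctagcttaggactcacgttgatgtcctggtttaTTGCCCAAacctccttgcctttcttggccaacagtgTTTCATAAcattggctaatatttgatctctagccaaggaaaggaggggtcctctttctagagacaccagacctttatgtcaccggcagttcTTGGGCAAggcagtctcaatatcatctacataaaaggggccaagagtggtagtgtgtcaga
The window of S100a8 held 1 match, that of S100a9 held 2 and that of Ngp held 3. No match was found in the windows of S100a1, S100a4, S100a6, S100a11, S100a13 and S100b, and S100a10 had no entry. The pattern occurred in 13365 of 32851 promoters of the same length (40.7%). A G-quadruplex pattern, 4 runs of at least 3 G with loops of 1 to 7 bases on either strand, was found in the windows of S100a9 and S100a11 and in 18.6% of all promoters. These matches describe letters only, and binding to them was not measured.

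Signals are given as the spot intensity above the mean of the array's blank spots. Their medians over probes were 64.6 for AtrxdE2, against 42.2 for wild type, and 79.0 for AtrxdE2+TMPyP4, against 36.0 for wild type. The 2736 blank spots had SDs of 3.30 for AtrxdE2, against 1.23 for wild type, and of 3.27 for AtrxdE2+TMPyP4, against 0.92 for wild type, and a probe counted as above background past 2 of these SDs. Since each comparison rests on 1 array, p-values cannot be given, and precision is limited by the number of arrays. Measures of spread are given instead: the SD of the blanks, the SD of log2 ratios among the 500 genes of closest signal (the local SD), and the repeat of the wild-type channel. They do not replace a p-value. The local SD is a spread between different genes, in which real differences and noise are mixed. It does not measure the error of a gene's ratio or the variation between pools, and serves as a yardstick only. After quantile normalization wild type on one array correlated with wild type on the other at r = 0.985 over 18664 probes (SD of the difference 0.29 log2 units), and both mutant channels with each other at r = 0.973 (SD 0.39). Atrx itself had signals of 19.1 in AtrxdE2, against 47.4 in wild type, and of 71.5 in AtrxdE2+TMPyP4, against 54.6 in wild type. Its log2 ratios were -0.68 and -0.36, a difference between the pools of 0.32. In the authors' deposited table the ratios were -1.96 and -0.78, a difference of 1.18. The place of the Atrx probe in the gene was not analysed here, so these values check the labels only if the probe lies in the deleted part. Of 23 hippocampal neuron genes listed, 19 had a probe and 17 of these were above background in all 4 channels.

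Calprotectin genes and Ngp were higher in AtrxdE2 than in wild type, and were not higher in AtrxdE2+TMPyP4. S100a9, the subunit without which S100A8 protein is unstable in mice, had a signal of 80.5 in AtrxdE2, against 12.6 in wild type on the same array, and of 10.8 in AtrxdE2+TMPyP4, against 10.8 in wild type on the second. AtrxdE2 thus stood apart from the 3 other channels. As a multiple of the channel's median, which removes the overall difference in brightness between channels, S100a9 was at 1.25 in AtrxdE2, against 0.300 in wild type, and at 0.136 in AtrxdE2+TMPyP4 and 0.301 in wild type. The wild-type values of both arrays were nearly equal, with a difference of 0.04 on the normalized log2 scale.

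The log2 ratio of S100a9 over wild type was 0.74 in AtrxdE2 (local SD 0.10) and -0.20 in AtrxdE2+TMPyP4 (local SD 0.12). These ratios were computed with an offset that pulls the ratios of dim probes towards 0. In the authors' deposited table, which has no offset, the log2 ratio of S100a9 was 2.02 in AtrxdE2 and -1.18 in AtrxdE2+TMPyP4. The scatter of the blanks alone gives the unshrunken ratio of S100a9 an error of 0.15 on the first array and of 0.46 on the second, where the mutant signal was 3.29 SDs of the blanks. In AtrxdE2 the ratio of S100a9 exceeded that of all 500 genes of closest signal, and 18 of the 13596 named genes had a higher one. In AtrxdE2+TMPyP4 it stood at percentile 3.0 of its 500 neighbours in signal, and with the local background in place of the blank spots it was 0.01. Each of the spots of S100a9 carried the scanner's mark of good quality on both arrays. Local background around its spot was 85.4 in the AtrxdE2 channel (array median 84.1) and 88.7 in the AtrxdE2+TMPyP4 channel (array median 117.4), and its part in the ratios was not tested.

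S100a8, the partner subunit that carries much of the signalling of calprotectin, showed a smaller difference. Its signal was 105 in AtrxdE2, against 39.9 in wild type, and 98.6 in AtrxdE2+TMPyP4, against 51.0 in wild type on the second array. As a multiple of the channel's median, S100a8 was at 1.62 in AtrxdE2 and 0.946 in wild type, and at 1.25 in AtrxdE2+TMPyP4 and 1.42 in wild type. The log2 ratio was 0.42 in AtrxdE2 (local SD 0.19, percentile 97.8) and -0.07 in AtrxdE2+TMPyP4 (local SD 0.19), with 0.74 and -0.22 in the authors' deposited table. Unlike S100a9, the wild-type level of S100a8 itself differed between arrays, by 0.30 log2 units on the normalized scale, where the local SD of that difference was 0.27. Set against the mean of both wild-type channels, the log2 ratio of S100a8 was 0.29 in AtrxdE2 and 0.05 in AtrxdE2+TMPyP4, so its sign in the treated pool depended on the wild-type channel used. With the local background in place of the blank spots, the AtrxdE2 ratio of S100a8 was 0.17.

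Ngp, on another chromosome, had ratios of the same signs as the calprotectin genes, which is how these genes were chosen. Its signal was 25.3 in AtrxdE2, against 6.15 in wild type, and 16.4 in AtrxdE2+TMPyP4, against 7.68 in wild type. As a multiple of the channel's median, Ngp was at 0.392 in AtrxdE2 and 0.146 in wild type, and at 0.207 in AtrxdE2+TMPyP4 and 0.213 in wild type, so that AtrxdE2 was again the channel that stood apart. The log2 ratio was 0.24 in AtrxdE2 (local SD 0.089, percentile 99.2) and -0.02 in AtrxdE2+TMPyP4 (local SD 0.12). In the authors' deposited table it was 1.39 and -0.08, with an error from the blanks of 0.34 on each array. Against the local background, the ratio of Ngp in AtrxdE2+TMPyP4 was 0.07, and against the mean of both wild-type channels it was 0.04. Its sign in the treated pool thus depended on the setting. RNA of whole tissue does not distinguish more cells of a type from more RNA per cell, and this holds for every gene below.

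**Figure D1:**
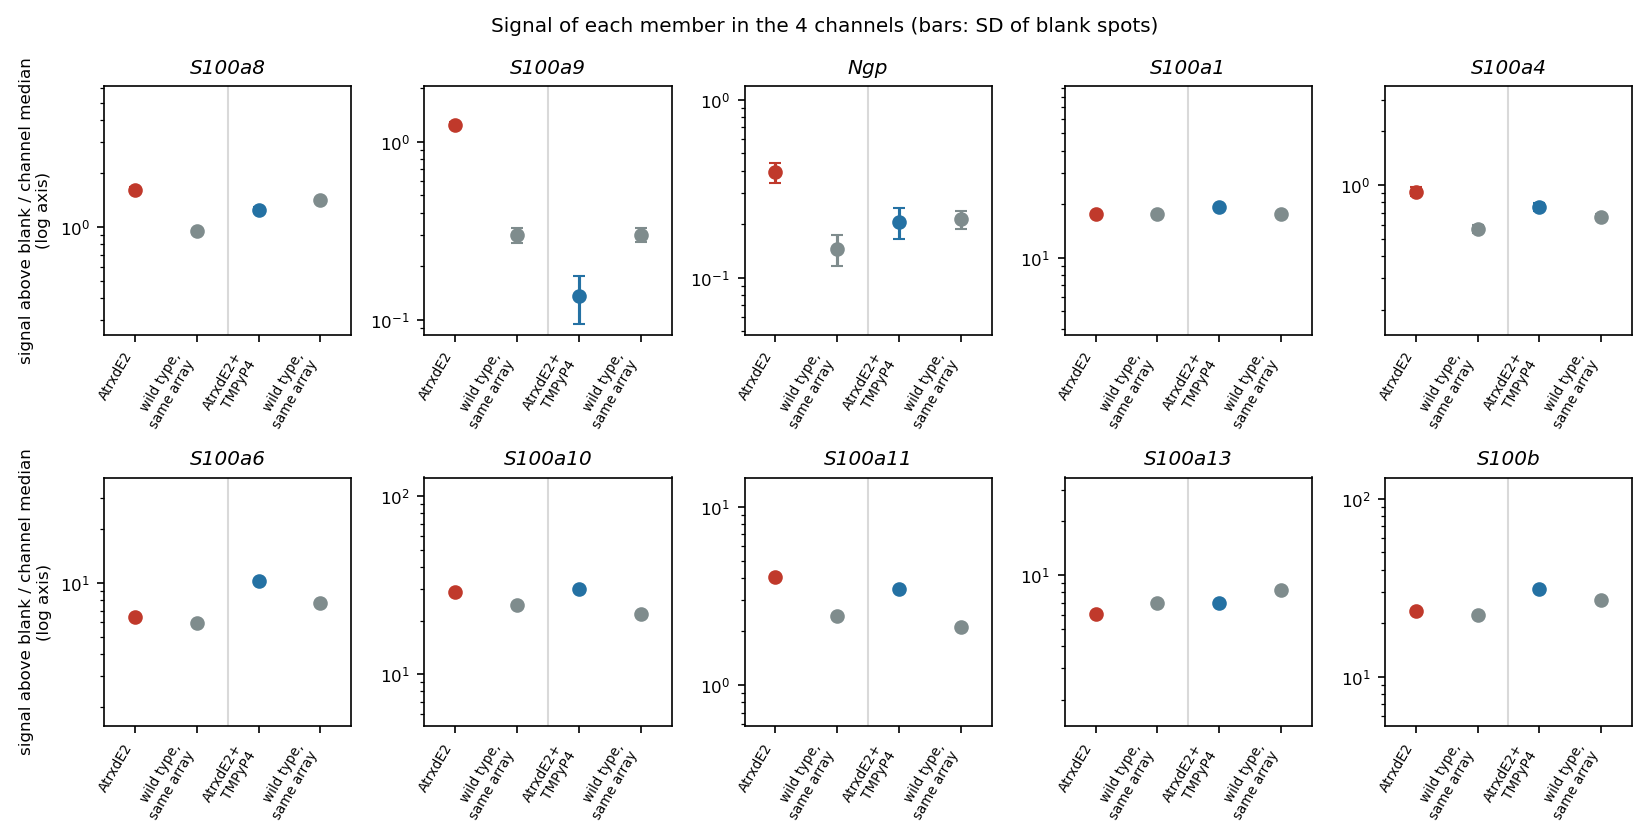
Signal of each of the 10 genes in the 4 channels, as the signal above blank divided by the channel's median (log axes, all spanning the same fold range), with bars for the SD of the blank spots. For S100a9, AtrxdE2 lies at 1.25 and the other 3 channels between 0.136 and 0.301, whereas S100a11 is above wild type in both mutant pools.

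Between the mutant pools, compared as the difference of their ratios over wild type, calprotectin and Ngp were lower with TMPyP4. The difference was -0.93 for S100a9 (local SD 0.16), -0.49 for S100a8 (local SD 0.23) and -0.26 for Ngp (local SD 0.14). In the authors' deposited table the differences were -3.20, -0.96 and -1.47. S100a9 was below all of its 500 neighbours in signal, with 16 named genes lower, and S100a8 and Ngp stood at percentiles 0.8 and 1.2. When the channels of both mutant pools were set against each other directly after quantile normalization, the difference was -0.96 for S100a9 (local SD 0.20), -0.24 for S100a8 (local SD 0.35) and -0.16 for Ngp (local SD 0.17). By that route only S100a9 of these genes was past its local SD. S100a8, S100a9 and Ngp were chosen for opposite signs of their ratios, so the negative sign of the difference of ratios follows from the choice. The percentiles are given as a description, and the difference is no further support for the ratios.

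Among S100 genes of other cells, S100a11 was higher than wild type in both mutant pools. S100a11, a partner of annexin A1 in membrane repair and growth control, had a signal of 262.5 in AtrxdE2, against 103 in wild type, and of 273 in AtrxdE2+TMPyP4, against 75.8 in wild type. Its log2 ratio was 0.54 in AtrxdE2 (local SD 0.21, percentile 98.8) and 0.52 in AtrxdE2+TMPyP4 (local SD 0.21, percentile 98.4), with 0.70 and 0.68 in the authors' deposited table. Both pools therefore stood about equally above wild type, with a difference between them of -0.01. Over the settings tried, the ratio of S100a11 ranged between 0.51 and 0.73 in AtrxdE2 and between 0.27 and 0.77 in AtrxdE2+TMPyP4.

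S100a10, the light chain that binds annexin A2 and carries channels and serotonin receptors to the membrane, had a signal of 1859 in AtrxdE2, against 1028 in wild type, and of 2362 in AtrxdE2+TMPyP4, against 779 in wild type. The log2 ratio was 0.21 in AtrxdE2 (local SD 0.24) and 0.37 in AtrxdE2+TMPyP4 (local SD 0.22, percentile 93.6). The first lies within its local SD, and with the local background as reference level it was -0.54. S100a6, known as calcyclin and bound by the ubiquitin ligase partner CACYBP, had a signal of 414 in AtrxdE2, against 252 in wild type, and of 810.4 in AtrxdE2+TMPyP4, against 279 in wild type. Its log2 ratio was 0.06 in AtrxdE2 (local SD 0.24) and 0.32 in AtrxdE2+TMPyP4 (local SD 0.21, percentile 88.4). Against the mean of both wild-type channels, the AtrxdE2 ratio of S100a6 was -0.09. For both genes the treated pool was the higher, by 0.16 for S100a10 and 0.26 for S100a6, within local SDs of 0.30 each. These differences depended on the setting: with the mutant channels set against each other directly they were 0.009 for S100a10 and 0.56 for S100a6 (local SD 0.47), and with the local background 0.93 and 0.44.

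S100a4, a marker of fibroblasts and of migrating cells that binds non-muscle myosin, had a signal of 59.3 in AtrxdE2, against 23.8 in wild type, and of 59.5 in AtrxdE2+TMPyP4, against 23.9 in wild type. The raw signals of S100a4 hardly differed between arrays, but the channel medians did, and its log2 ratio was 0.28 in AtrxdE2 (local SD 0.15, percentile 96.4) and 0.08 in AtrxdE2+TMPyP4 (local SD 0.14). The authors' deposited table has 0.66 and 0.15. The difference between the pools was -0.20, equal to its local SD of 0.20.

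S100b, S100a1 and S100a13 differed little. S100b, the astrocyte protein that is used as a marker of glial injury, had a signal of 1516 in AtrxdE2, against 938 in wild type, and of 2459 in AtrxdE2+TMPyP4, against 976 in wild type, with log2 ratios of 0.05 and 0.11 (local SDs 0.24 and 0.22). S100a1, a regulator of calcium release in muscle and neurons, had a signal of 1143 in AtrxdE2, against 748 in wild type, and of 1522 in AtrxdE2+TMPyP4, against 639 in wild type, with log2 ratios of -0.03 and 0.04 (local SDs 0.22 and 0.23). S100a13, which takes part in the export of FGF1 and interleukin 1 alpha, had ratios below 0 in both pools. Its signal was 391 in AtrxdE2, against 293 in wild type, and 549.8 in AtrxdE2+TMPyP4, against 297 in wild type, with log2 ratios of -0.19 and -0.24 (local SDs 0.24 and 0.20). For these 3 genes the sign of a ratio turned under at least 1 other normalization, so no direction is given.

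**Figure D2:**
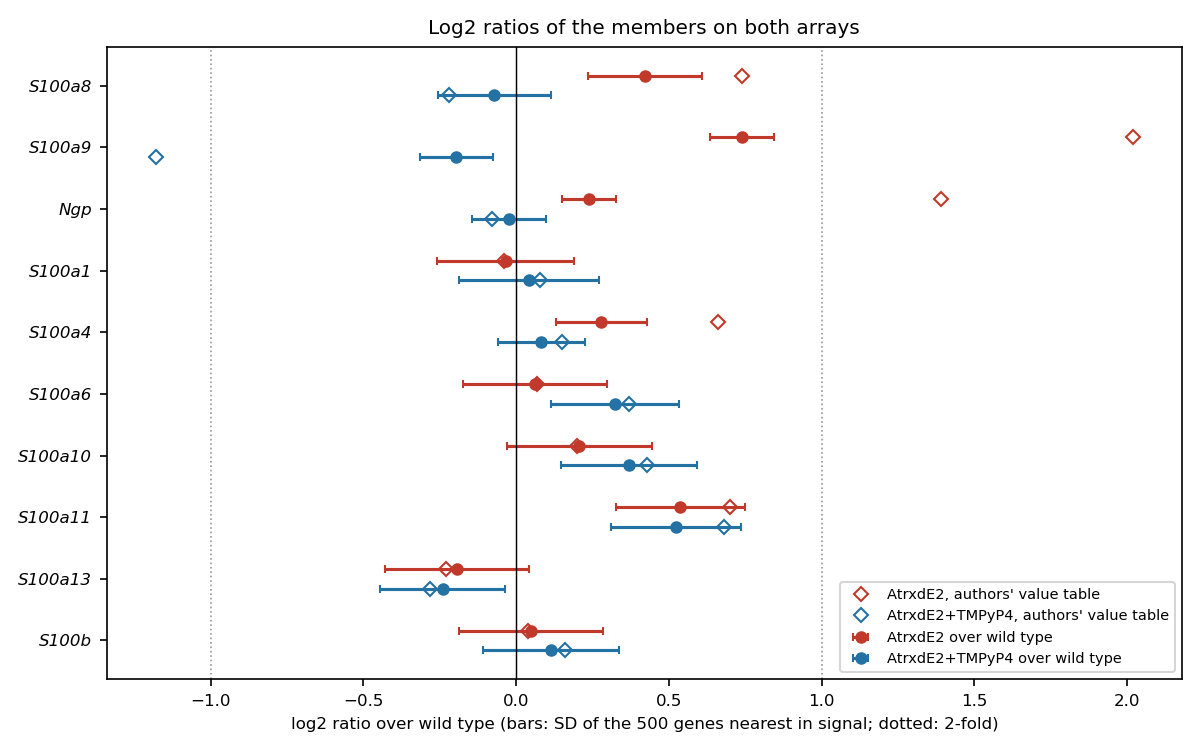
Log2 ratio over wild type of each gene in AtrxdE2 (upper of each pair) and AtrxdE2+TMPyP4 (lower), as filled points with bars for the SD among the 500 genes of closest signal, and as open diamonds for the authors' deposited table. S100a9 is at 0.74 and -0.20, with diamonds at 2.02 and -1.18, and the diamonds leave the filled points mainly for the dim genes S100a8, S100a9, Ngp and S100a4.

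Counted over the 10 genes, none reached a 2-fold difference in AtrxdE2 over wild type, where 0.0857% of all probes did, none in AtrxdE2+TMPyP4 over wild type, against 0.214% of probes, and none between the mutant pools, against 0.477% of probes. At 1.5-fold, S100a9 was the member that was higher in AtrxdE2 than in wild type, as 0.616% of all probes were, and also the member that was lower in AtrxdE2+TMPyP4 than in AtrxdE2, as 1.51% were. No member differed by 1.5-fold between AtrxdE2+TMPyP4 and wild type, where 1.46% of probes did. In the authors' deposited table, with its wider ratios of dim probes, S100a9 and Ngp were at least 2-fold higher in AtrxdE2 than in wild type, as 1.17% of probes were. There S100a9 was at least 2-fold lower in AtrxdE2+TMPyP4 than in wild type (0.766% of probes), and S100a9 and Ngp were at least 2-fold lower in AtrxdE2+TMPyP4 than in AtrxdE2 (2.5% of probes). Plain subtraction of the blank level gave the same members, with 0.943%, 0.938% and 2.6% of probes. Since the members were proposed from these contrasts, nothing is read from the counts. The median log2 ratio of the members was 0.22 in AtrxdE2, 0.06 in AtrxdE2+TMPyP4 and -0.03 between the pools, against medians of -0.003, 0.01 and 0.02 over all 13596 genes. Above 0 were 8, 6 and 4 of the 10 members, against 49.3%, 52.8% and 52.8% of all genes.

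**Figure D3:**
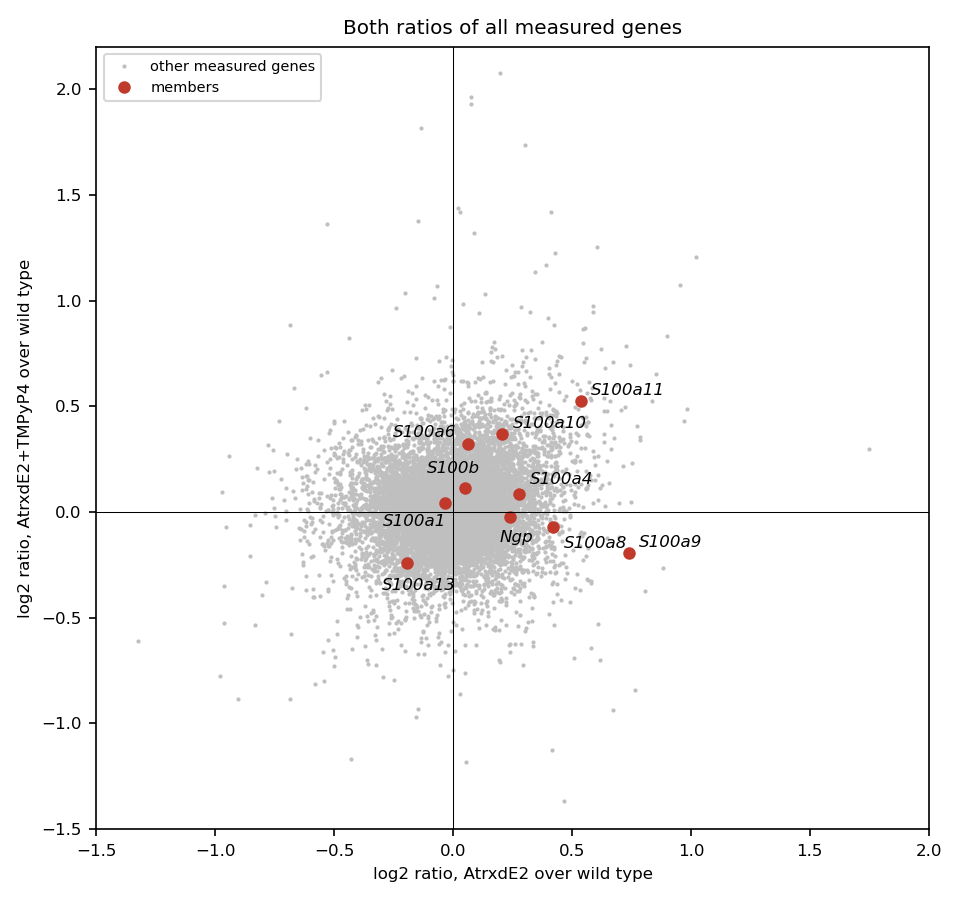
Log2 ratio in AtrxdE2+TMPyP4 over wild type against that in AtrxdE2 over wild type for 13596 measured genes, with the 10 members in red; 1 gene lies outside the axes. S100a9 lies at the right edge of the cloud below the horizontal zero line and S100a11 in the upper right corner, while S100b and S100a1 lie at the centre.

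Genes whose ratios lay closest to those of S100a9 in the plane of both arrays were, by the Euclidean distance over 2 ratios, Vamp5 (annotated AF119384, distance 0.09), Rasgrf1 (0.12), Chl1 (0.16), Cc2d1b (0.18) and Ptpn23 (0.18). Those closest to S100a8 were Dtna, Cmip, Dlgh3, Dlg4 and Cacna1d, at distances up to 0.02. When ratios without the offset were used, a setting added after the data were seen, the nearest to S100a9 were Ank2 (0.65), Tcaf1 (0.81), A930011G23Rik (0.85), Tcf4 (0.93) and Klf17 (1.01). Of the nearest genes to S100a9, 0 were shared between the settings, and 0 of all these genes belong to the neutrophil list.

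Neutrophil genes were examined because S100a8, S100a9 and Ngp are all carried by these cells. Ngp, whose ratios chose it, was left out of the list, as an alternative added after the data were seen. Of the 50 other listed neutrophil genes 39 had a probe and 24 were above background in all 4 channels, with median log2 ratios of 0.04 in AtrxdE2, -0.07 in AtrxdE2+TMPyP4 and -0.08 between the pools. Against the mean of both wild-type channels these medians were -0.02, 0.01 and 0.13, so the list had no settled direction. Above 0 were 14 of the 24 in AtrxdE2 and 8 of the 24 in AtrxdE2+TMPyP4. The summed signal of the list was 0.153‰ of the channel's signal in AtrxdE2, against 0.145 in wild type, and 0.145 in AtrxdE2+TMPyP4, against 0.155 in wild type. None of the 24 differed by 1.5-fold in the 3 comparisons, in which 1.3%, 1.46% and 3.62% of all probes did. The offset makes such a call hard to reach for dim probes, so nothing is read from this count. With plain blank subtraction and Ngp counted, 1 of 25 was 1.5-fold higher and 3 lower in AtrxdE2, against 527 and 702 of 13596 genes. The 1 higher was Ngp itself, at a log2 ratio of 1.30, and Ngp was chosen by its ratios. In AtrxdE2+TMPyP4 the counts were 2 and 1, against 626 and 433, and between the pools 3 and 4, against 1346 and 935. Ngp, at -1.46, was also among the 4 lower between the pools.

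Of 11 defining neutrophil genes besides Ngp 10 had a probe, and 7 of these were above background in AtrxdE2 and 8 in its wild-type channel, and 4 in AtrxdE2+TMPyP4 and 5 in its wild-type channel. Camp, the cathelicidin of neutrophil granules, had a signal of 19.3 in AtrxdE2, against 7.79 in wild type, and was not well above background in AtrxdE2+TMPyP4 (5.03), against 4.07 in wild type. Ltf, which encodes lactoferrin, had a signal of 14.2 in AtrxdE2, against 3.44 in wild type, and was not well above background in either channel of the second array. Mmp8, the neutrophil collagenase, had a signal of 16.1 in AtrxdE2, against 3.77 in wild type, and was likewise not well above background on the second array. These granule genes were thus brighter in AtrxdE2 than in its wild-type channel by more than the channel medians differ. Their log2 ratios in AtrxdE2 were 0.10 for Camp, 0.13 for Ltf and 0.16 for Mmp8, with 0.66, 1.39 and 1.44 in the authors' deposited table and errors from the blanks of 0.34, 0.62 and 0.56.

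Chil3 (annotated Chi3l3), a chitinase-like protein of myeloid cells chosen after its values were seen, had a signal of 11.7 in AtrxdE2 and was not well above background in the other 3 channels. Unmeasured signals were replaced by the lowest detectable one, or by the gene's own scaled signal where that was higher, as for Mmp8. By this floor, Camp was at least 1.17-fold lower in AtrxdE2+TMPyP4 than in AtrxdE2, Mmp8 at least 1.11-fold, Ltf at least 1.1-fold and Chil3 at least 1.07-fold. Chil3 was at least 1.12-fold higher in AtrxdE2 than in wild type. Such a floor was computed only for genes above background in 1 of the 2 channels compared, so its direction follows from detection. The scatter of the blanks is not counted in it, and Mmp8 in AtrxdE2+TMPyP4, at 6.36, was close to the limit of 6.53. No direction is read from these floors. Detection itself was lower on the second array: 2.51% of all probes were above background in AtrxdE2+TMPyP4 and not in AtrxdE2, against 5.71% in AtrxdE2 and not in AtrxdE2+TMPyP4, and for the wild-type channels of the same arrays these shares were 0.422% and 6.73%. Its part in the loss of Camp, Ltf, Mmp8 and Chil3 was not tested.

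Neutrophil genes that were above background in all 4 channels did not all share this pattern. Lcn2, the iron-binding lipocalin that glia also make, had a signal of 111 in AtrxdE2, against 60.9 in wild type, and of 165.5 in AtrxdE2+TMPyP4, against 87.7 in wild type, with log2 ratios of 0.16 and -0.12. Against the mean of both wild-type channels, which differed by 0.48, the ratios of Lcn2 were -0.07 and 0.09, so its signs depended on the wild-type channel used. Ly6g, the surface antigen that defines mouse neutrophils, had 43.4 in AtrxdE2, against 44.8 in wild type, and 105 in AtrxdE2+TMPyP4, against 44.1 in wild type. Its ratios of -0.28 and 0.09 ran opposite to those of S100a9. Cd177, an adhesion protein of neutrophils, had log2 ratios of 0.06 and -0.06, which likewise turned to -0.08 and 0.06, and the growth factor receptor gene Csf3r had 0.17 and -0.08. Mpo and Cxcr2 (annotated Il8rb) were not well above background in any channel, nor was Mmp9 outside the wild-type channel of the first array, and no probe was named Elane. A probe named Ela2, a symbol that could stand for Elane or for another elastase gene, had log2 ratios of 0.07 and 0.08. It is named after its values were seen. The highest ratio of the list in AtrxdE2+TMPyP4 was that of the protease gene Prtn3, at 0.53.

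**Figure D4:**
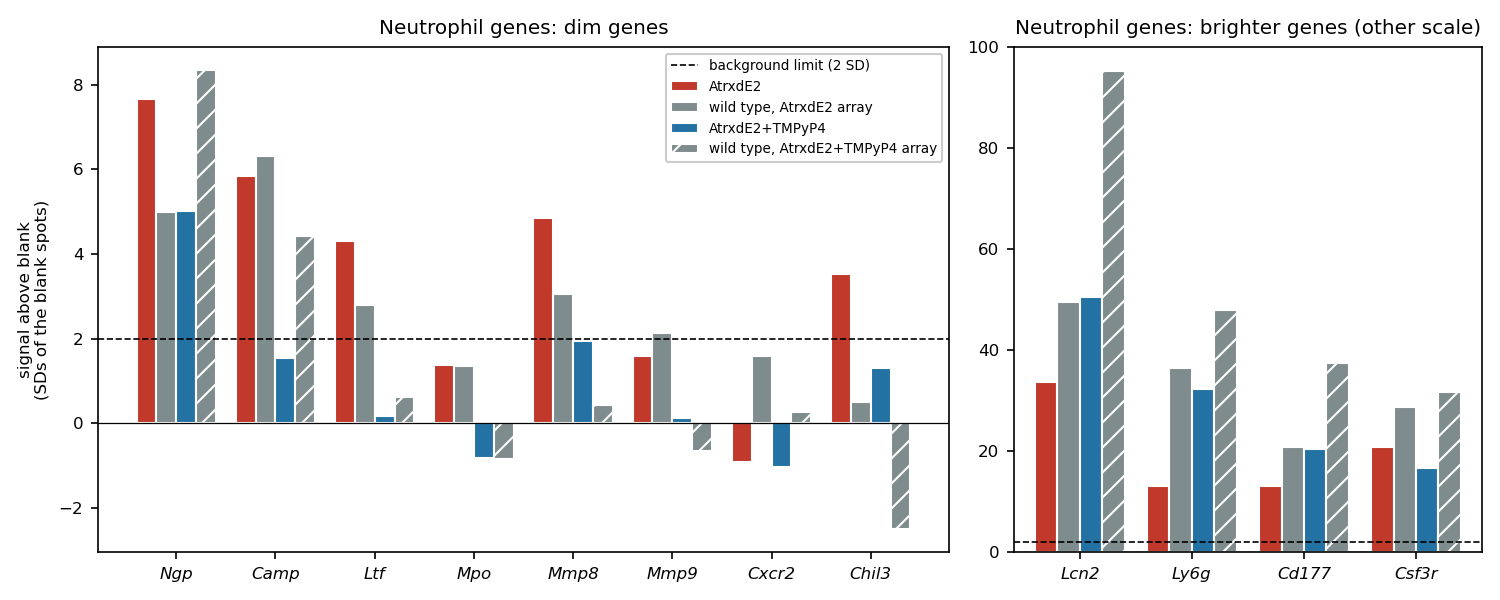
Signal above blank of Ngp and other neutrophil genes in the 4 channels, in SDs of the blank spots of each channel, with the background limit of 2 SD dashed; the brighter genes are on the right at another scale. Camp, Ltf, Mmp8 and Chil3 exceed the limit in AtrxdE2 and not in AtrxdE2+TMPyP4, while Lcn2, Ly6g, Cd177 and Csf3r exceed it in all 4 channels.

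Markers of other cells were measured beside the members. Of 19 monocyte and lymphocyte genes with a probe 11 were measured, with medians of -0.002 in AtrxdE2 and 0.06 in AtrxdE2+TMPyP4, but the immunoglobulin gene Ighm had log2 ratios of 0.34 and -0.63 and a difference of -0.97 between the pools, the same signs as S100a9. The AtrxdE2 ratio of Ighm was 0.09 against the mean of both wild-type channels, which differed by 0.50, and 0.04 with the local background. The red cell and platelet list, with 9 genes measured and no probe named for a haemoglobin, had medians of -0.04 and -0.09. The inflammation list had medians of 0.07 and 9.15e-05 over 18 genes.

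Oligodendrocyte markers were lower than wild type in AtrxdE2, with a median log2 ratio of -0.43 and 15 of 16 measured genes below 0. The lowest were Mbp (-1.32), which encodes myelin basic protein, and Mobp (-0.98), another myelin protein. In AtrxdE2+TMPyP4 the median was -0.24 and 13 of 16 lay below 0, but with median centring it was 0.08. Endothelial and mural markers had a median of 0.15 in AtrxdE2, with 15 of 19 measured genes above 0, and of 0.002 in AtrxdE2+TMPyP4. Microglia markers had medians of -0.07 and -0.09, with 12 of 17 below 0 in each pool, but against the mean of both wild-type channels the first was 0.05. The part of these cells in the members' ratios was not tested.

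Fibroblast and meningeal markers were higher in both mutant pools, as S100a11 was. All 20 such genes were measured, 19 lay above 0 in AtrxdE2 and 18 in AtrxdE2+TMPyP4, and their median log2 ratios were 0.37 and 0.56. Highest were Mgp (1.02) and Fn1 (0.84) in AtrxdE2, and Crabp2 (1.25) and Ogn (1.23) in AtrxdE2+TMPyP4. Their summed signal was 0.493‰ of the channel's signal in AtrxdE2, against 0.309 in wild type, and 0.465 in AtrxdE2+TMPyP4, against 0.286 in wild type. The part of these cells in the ratios of S100a4, S100a6, S100a10 and S100a11 was not tested.

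Choroid plexus markers were higher in the treated pool, with a median of 1.42 over 11 measured genes in AtrxdE2+TMPyP4, against 0.02 in AtrxdE2, and with Ttr at 6.58 and Folr1 at 1.93. Ttr, which encodes the transthyretin of the plexus, was also higher than wild type in AtrxdE2, with a signal of 353 against 44.2 in wild type and a log2 ratio of 1.59, or 0.75 against the mean of both wild-type channels. Its wild-type channels themselves differed by 1.79 log2 units, the second array being higher. Their summed signal was 4.98‰ of the channel's signal in AtrxdE2+TMPyP4, against 0.357 in wild type on that array, and 0.407 in AtrxdE2, against 0.352 in its wild type. S100a6 and S100a10 had their higher ratios in this pool, and the part of choroid plexus RNA in them was not tested. Astrocyte markers, the setting for S100b, had medians of -0.01 in AtrxdE2 and 0.11 in AtrxdE2+TMPyP4 over 20 genes, close to the ratios of S100b of 0.05 and 0.11.

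Receptors and binding partners of S100 proteins showed no common direction. Of 34 listed 32 had a probe and 30 were measured, with medians of -0.007 in AtrxdE2, 0.05 in AtrxdE2+TMPyP4 and 0.07 between the pools, and 14, 20 and 17 of the 30 above 0. In AtrxdE2 the ends of the list were Alcam (0.79), an adhesion molecule, and Mapt (0.45), which encodes tau, against Atp2a2 (-0.65), the sarcoplasmic calcium pump that S100A1 regulates in heart, and Syn1 (-0.38), which encodes synapsin. The wild-type channels of Syn1 differed by 1.33 log2 units, and against their mean its ratio in AtrxdE2 was 0.26, so no direction is given for it. In AtrxdE2+TMPyP4 they were Emb (1.07) and Anxa1 (0.66), against Stk38 (-0.45), a kinase bound by S100B, and Ndrg1 (-0.34).

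Emb encodes embigin, a membrane protein bound by S100A8 and S100A9, and was past 2-fold in AtrxdE2+TMPyP4 over wild type and between the pools. With the offset no other gene of this list was, whereas the authors' deposited table also put Anxa1 (1.80) past 2-fold in AtrxdE2+TMPyP4 over wild type, and Ryr1 (-1.35) and Stk38 (-1.03) between the pools. Its signal was 168.5 in AtrxdE2, against 118 in wild type, and 545 in AtrxdE2+TMPyP4, against 96.2 in wild type, which placed the treated pool apart from the 3 other channels. The log2 difference between the pools was 1.14, opposite in sign to that of S100a8 and S100a9. Anxa1, the annexin that S100A11 binds, had a signal of 42.3 in AtrxdE2, against 14.6 in wild type, and of 92.5 in AtrxdE2+TMPyP4, against 11.8 in wild type, with log2 ratios of 0.27 and 0.66. The other ends of the difference between the pools were Anxa5 (0.76), Stk38 (-0.78) and Ryr1 (-0.53). Named after their values were seen, the receptor genes Ager, which encodes RAGE, and Tlr4 had log2 ratios of -0.01 and 0.08, and of -0.01 and 0.06, and Anxa2, the partner of S100a10, had -0.27 and 0.04.

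Along the chromosome, 8 of the 10 members lie on chromosome 3, Ngp on chromosome 9 and S100b on chromosome 10. S100a8 and S100a9 are neighbours there, and S100a1 and S100a13 start 105 bases apart on opposite strands. From 2 genes before the first member to 2 after the last, RefSeq lists 74 protein-coding genes on chromosome 3, of which 46 had a probe and 27 were measured. The nearest measured genes matched by name on each side of the calprotectin pair did not share its higher ratios in AtrxdE2. S100a6 had 0.06 in AtrxdE2 and 0.32 in AtrxdE2+TMPyP4, and Pglyrp3, on the other side, 0.001 and -0.07. Between S100a6 and S100a8 lies S100a7a, for which no probe was matched by name. The probe annotated S100a15 was not placed in this order, and whether it measures S100a7a was not checked. Of the S100 genes outside the 10 members, 5 were on the array and 4 measured, with log2 ratios between -0.15 (annotated S100a15) and 0.11 (S100a3) in AtrxdE2, and between 0.04 (S100a15) and 0.14 (S100a14) in AtrxdE2+TMPyP4. Without the offset these dim genes spread more widely: in the authors' deposited table they lay between -0.33 (S100a5) and 0.42 (S100a3) in AtrxdE2, and between -0.03 (S100a15) and 0.65 (S100a14) in AtrxdE2+TMPyP4, where S100a11 had 0.68.

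**Figure D5:**
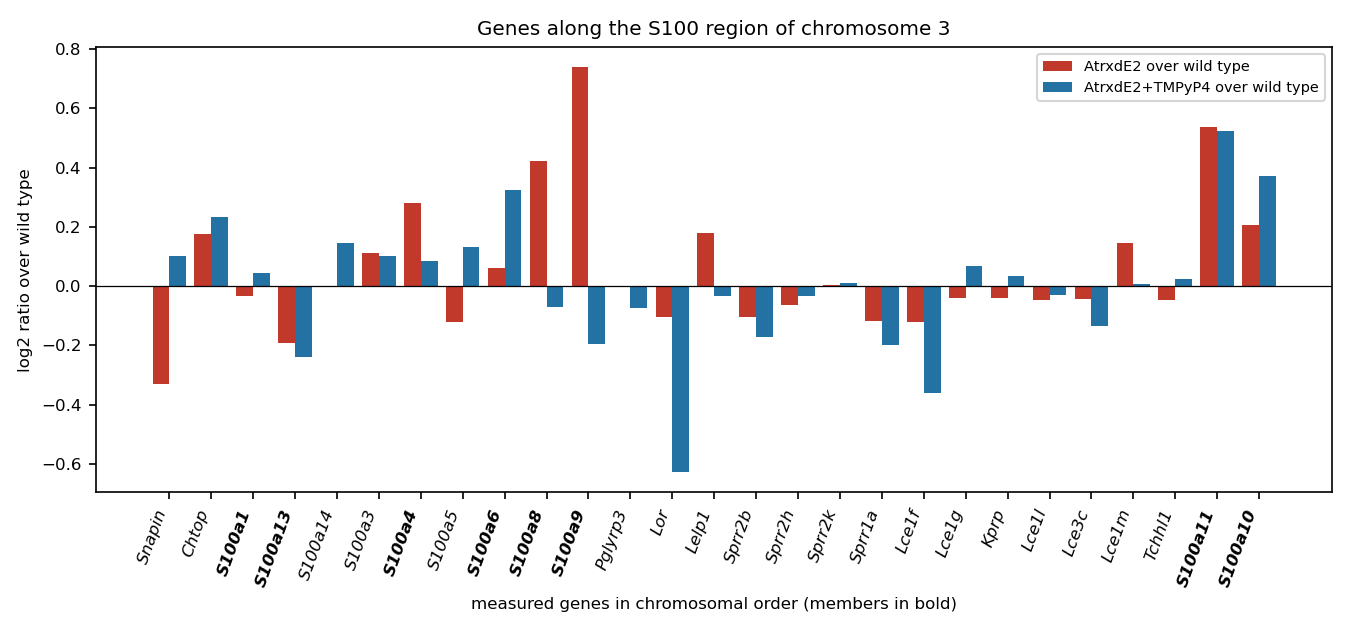
Log2 ratio over wild type of the 27 measured genes of the S100 region of chromosome 3 in chromosomal order (not to scale), AtrxdE2 in red and AtrxdE2+TMPyP4 in blue, members in bold. The highest ratios in AtrxdE2 are those of S100a9 at 0.74, S100a11, at the far end, at 0.54 and S100a8 at 0.42. S100a11 is also at 0.52 in AtrxdE2+TMPyP4.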

How the data were processed

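Two-colour arrays of 2 mutant pools against wild type were analysed, 1 array each. Per the file headers, the deposited scanner tables hold each spot's median intensity in both channels with local background and quality marks; the scanning software is not given in the sources used here. Per the labels, the authors' table gives log2 ratios, mutant over wild type, after normalization. Its column medians were 0, and 99.99% of its values on each array equalled the log2 ratio after subtraction of the blank level, minus a constant (0.65 for AtrxdE2, 1.17 for AtrxdE2+TMPyP4), within 0.01, which settles scale, centring and direction.

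Ratios were computed with limma 3.58.1 in R 4.3.3: normexp with an offset of 50 on the trimmed mean of the blank spots (a share of 0.05 left out at each end), then loess within arrays, with control spots at weight 0. Blank spots were preferred to the local background after the data had been seen. Probes of 1 gene were averaged. On simulated data over 18665 spots, with 50 changed at each level, a log2 ratio of 2 came back with a median of 1.46 (AtrxdE2 array) and 1.44 (AtrxdE2+TMPyP4 array). A ratio of -2 came back with -0.86 and -1.04. Past 2-fold were 72% and 76% of spots set to 2, and 44% and 52% of those set to -2. Of spots set to 1 they were 12% and 8%, and of those set to -1, 6% and 8%. Residuals were shuffled over probes of all signals, so dim probes were not simulated on their own. Alternatives were plain blank subtraction, the local background, median centring, the authors' table, a limit of 3 SD, a fold of 1.5, the mean of both wild-type channels, and both mutant channels set against each other.

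The members and gene lists were chosen with earlier results of these data known. Besides the members and the defining neutrophil genes, the 2 highest and 2 lowest genes of a list and the 5 nearest genes were named, and any gene of a list with under 8 measured. Floors for "at least" folds were the lowest signals well above background, or the gene's own signal where higher. They were taken per channel after loess and quantile scaling, and are open to dye bias. Promoters and gene order came from RefSeq tables of GRCm38.p6, with older symbols matched through synonyms.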

Additional observations from a re-analysis of the deposited data

Results flagged for a closer look

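For 4 members the ratio over wild type had opposite signs in AtrxdE2+TMPyP4 and AtrxdE2, and whether the pools differ was not tested, since each has 1 array. The log2 difference, AtrxdE2+TMPyP4 minus AtrxdE2, was -0.93 for S100a9, -0.49 for S100a8, -0.26 for Ngp and 0.077 for S100a1. The difference of S100a1 was within its local SD of 0.30. S100a8, S100a9 and Ngp were chosen by these opposite signs, so for them the flag restates the choice. Their signs in AtrxdE2+TMPyP4 also turned under some settings. Against the mean of both wild-type channels the ratio was 0.05 for S100a8 and 0.04 for Ngp. With the local background it was 0.01 for S100a9 and 0.07 for Ngp.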

How the results depend on the processing

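Of 190 values of members under alternatives, 145 stayed within the local SD of the value reported, 45 moved by more and 18 had the opposite sign, 6 of them under median centring, 6 with the local background, 5 with the mean of both wild-type channels and 1 with both mutant channels set against each other. No member changed sign in the authors' table or with plain blank subtraction. The 3 SD limit only filters probes, so its 30 values could not move. The 10 values with both mutant channels set against each other equal the differences against the mean of both wild-type channels. They repeat values already counted. The normexp offset narrows dim probes by construction. Causes of the other shifts were not tested. Median centring raised the median of all genes to 0.066 in AtrxdE2 and 0.18 in AtrxdE2+TMPyP4, where it gave 211 probes 2-fold higher and 0 lower, against 27 and 13 with loess.

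Probes 2-fold apart numbered 16 in AtrxdE2 over wild type, against 350 with plain subtraction, 47 with the local background, 30 with median centring, 367 in the authors' table, 37 with the mean of both wild-type channels and 242 at 1.5-fold. In AtrxdE2+TMPyP4 over wild type they numbered 40, against 428, 460, 211 and 454 under the first 4 of these and 272 at 1.5-fold. Between the pools they numbered 89, against 1055, 654, 191 and 1043, 448 with the mean of both wild-type channels or directly between mutant channels (the same by construction), and 675 at 1.5-fold. The local background split the calls 447 higher to 13 lower in AtrxdE2+TMPyP4 and 601 to 53 between the pools, and median centring 143 to 48, against 40 to 49 as reported.

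Members 2-fold apart numbered 0 in all 3 comparisons as reported. In AtrxdE2 they were 2 with plain subtraction, 2 in the authors' table and 1 at 1.5-fold, in AtrxdE2+TMPyP4 1 with plain subtraction and 1 in the authors' table, and between the pools 2 with plain subtraction, 2 in the authors' table, 1 with median centring and 1 at 1.5-fold. The members' median of 0.22 in AtrxdE2 was 0.46 with plain subtraction and 0.43 in the authors' table, and that of 0.06 in AtrxdE2+TMPyP4 was 0.39 with median centring. No paired analysis was possible because each group has 1 array of 1 pool. For the same reason no array could be left out.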
